A study of Homo sapiens with 6 samples.

Results

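Human mitochondrial DNA (mtDNA) carries 35 genes in the count tables, and 9 of them were listed on the minus strand. These 9 were MT-ND6, the only protein gene among them, and 8 transfer RNA (tRNA) genes. They were defined by position, as all genes of the mitochondrial chromosome on that strand, out of 57500 genes in all. This set was taken up with earlier results of these data known. The other 26 mtDNA genes, 12 for proteins and 14 for tRNAs, were on the plus strand. The series measured RNA from mitochondria isolated with a kit from HepG2, a human liver carcinoma line labelled wild type. Cells received the solvent DMSO alone (control), 10 µM GenX or 100 µM GenX, and all were exposed for 48 h. GenX is the trade name of a fluorinated processing aid that belongs to the per- and polyfluoroalkyl substances. There were 2 libraries per dose, 6 in all and all labelled as 1 batch, prepared by a stranded workflow after depletion of ribosomal RNA. A single carcinoma line stands for liver here, and all groups carry its altered genome and share the solvent.

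Mitochondrial DNA is transcribed from both strands into long precursors that run through many genes. The precursor from the light-strand promoter yields MT-ND6 and the 8 tRNAs studied here, and the rest of it is antisense to the other genes and is normally broken down. The opposite precursor yields the remaining mRNAs and tRNAs. Within both, tRNAs separate the other genes and are cut out by RNase P at the 5′ end and by ELAC2 at the 3′ end. MT-ND6 protein is a membrane subunit of respiratory complex I, and each tRNA carries 1 amino acid to the mitochondrial ribosome.

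The 8 tRNA genes are shown so that the short RNAs counted here can be told apart, MT-TC and MT-TY among them, whose levels are set beside the other 6 below. Each is written 5′ to 3′ along the minus strand, as GENCODE release 29 gives it for GRCh38, with the anticodon in capitals. The coordinates are those of the count tables and were the same in GENCODE for all 35 mtDNA genes.
MT-TQ, glutamine, chrMT:4329-4400: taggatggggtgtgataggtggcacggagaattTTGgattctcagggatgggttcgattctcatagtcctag
MT-TA, alanine, chrMT:5587-5655: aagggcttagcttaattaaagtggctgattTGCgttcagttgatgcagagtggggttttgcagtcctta
MT-TN, asparagine, chrMT:5657-5729: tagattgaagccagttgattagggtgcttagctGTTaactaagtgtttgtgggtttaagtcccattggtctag
MT-TC, cysteine, chrMT:5761-5826: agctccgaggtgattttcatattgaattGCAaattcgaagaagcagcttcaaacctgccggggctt
MT-TY, tyrosine, chrMT:5826-5891: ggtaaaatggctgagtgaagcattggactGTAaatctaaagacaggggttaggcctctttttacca
MT-TS1, serine, chrMT:7446-7514: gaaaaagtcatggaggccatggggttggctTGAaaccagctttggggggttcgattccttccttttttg
MT-TE, glutamate, chrMT:14674-14742: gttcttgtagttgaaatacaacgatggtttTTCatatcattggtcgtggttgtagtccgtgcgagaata
MT-TP, proline, chrMT:15956-16023: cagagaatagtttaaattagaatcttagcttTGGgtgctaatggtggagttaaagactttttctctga

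MT-ND6 lies at chrMT:14149-14673 and is 525 bases long, against 66 to 73 bases for the tRNA genes. Its first 60 bases show how rich in G the RNA from this strand is.
MT-ND6: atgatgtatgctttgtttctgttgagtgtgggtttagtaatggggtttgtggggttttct
The RNA of MT-ND6 is 35.6% G and 7.05% C. Among the 12 plus-strand protein genes G ran from 6.28% to 16.2% and C from 29.5% to 36.0%. All 8 minus-strand tRNA genes also had more G than C, as did 1 of the 14 plus-strand tRNA genes. MT-TC, with 24.2% G and 21.2% C, had the most C of the 8. MT-TA, MT-TN, MT-TC and MT-TY lie next to each other between MT-ND2 and MT-CO1, with the light-strand origin of replication between MT-TN and MT-TC. MT-TC and MT-TY share 1 base.

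Libraries held 240683 and 60854 counts in the controls, then 43556 and 29350 at 10 µM and then 2141282 and 1338397 at 100 µM, a 73.0-fold range. Every member had a count in every library, with 4 as the lowest, so no value fell below the level of 3 counts that stands for not detected. The HepG2 label was checked on 9 hepatocyte genes. Of these, 6 and 4 had a count in the controls, then 6 and 2 at 10 µM and then 9 and 8 at 100 µM. Together they took 0.551% and 1.05%, 0.0413% and 0.0136%, and 1.09% and 1.06% of the counts. AFP had no count in the controls or at 10 µM, and ALB had 22 and 31, 2 and 0, and 176 and 232. The share of MALAT1, a nuclear RNA, was 13.5% and 4.61% in the controls, then 0.0390% and 0.0443% at 10 µM and then 2.88% and 2.60% at 100 µM. The part of depth and of nuclear and cytosolic RNA in the results below was not tested.

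MT-ND6 took 1213 and 4108 CPM (read counts scaled to a common library total) in the controls. It took 20020 and 27734 CPM at 10 µM but 347 and 414 CPM at 100 µM. Both 10 µM libraries lay above both controls, and both 100 µM libraries lay below them. As counts, these were 292 and 250, 872 and 814, and 744 and 554. In a bulk library more mitochondria and more RNA per mitochondrion cannot be told apart, nor can fewer cells of a type and less RNA per cell.

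The 9 genes together took 3286 and 10057 CPM in the controls, then 38801 and 52300 CPM at 10 µM and then 494 and 596 CPM at 100 µM. Group means were 6672 ± 4787 CPM (SD, n = 2), 45550 ± 9545 CPM and 545 ± 72.2 CPM. The controls differed from each other about as much as their mean, so the control level is the least certain of the 3.

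**Figure D1:**
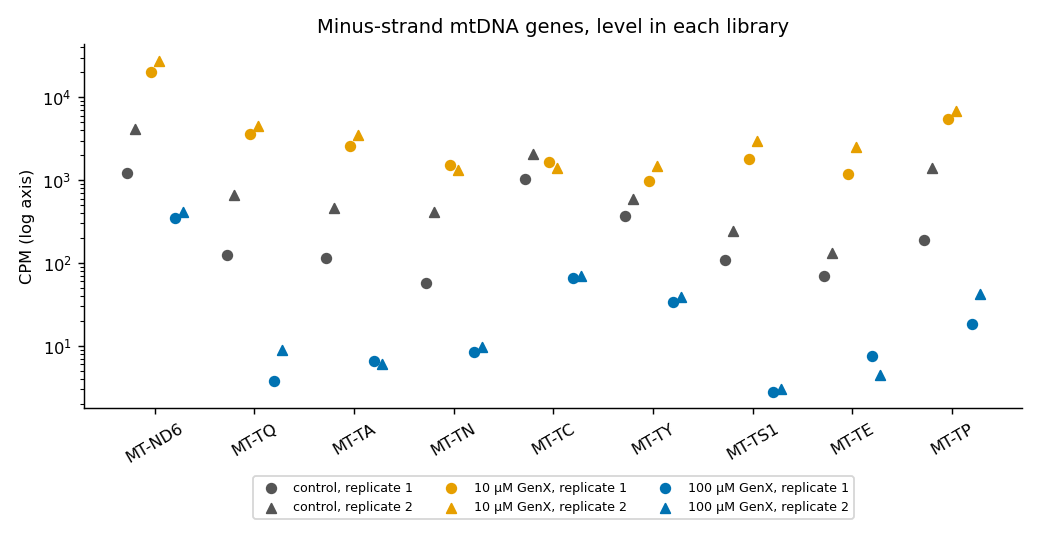
Level of each of the 9 minus-strand mtDNA genes in each library, in CPM on a log axis, with 1 point per library and the shape giving the replicate. The 10 µM points lie above the control points for every gene except MT-TC, and the 100 µM points lie below both other groups for all 9.

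Of the tRNA genes, MT-TP, for proline, had 191 and 1397 CPM in the controls, then 5418 and 6848 CPM at 10 µM and then 18.2 and 41.8 CPM at 100 µM. It is the first tRNA gene downstream of the light-strand promoter. MT-TQ, for glutamine, had 125 and 657 CPM, 3582 and 4463 CPM, and 3.74 and 8.97 CPM at the same doses. MT-TS1, the serine tRNA that reads UCN codons, had 108 and 246 CPM, 1814 and 2998 CPM, and 2.80 and 2.99 CPM. For all 3 the groups did not overlap, with 10 µM highest and 100 µM lowest.

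MT-TA, for alanine, followed the same order with 116 and 460 CPM in the controls, then 2571 and 3543 CPM at 10 µM and then 6.54 and 5.98 CPM at 100 µM. MT-TE, for glutamate, lies next to MT-ND6 and had 70.6 and 131 CPM, 1194 and 2487 CPM, and 7.47 and 4.48 CPM. MT-TN, for asparagine, had 58.2 and 411 CPM, 1538 and 1329 CPM, and 8.41 and 9.71 CPM. At 100 µM these levels rest on few reads. The 6 and 4 counts of MT-TS1 allow 1.03 to 6.10 and 0.814 to 7.65 CPM (exact 95% Poisson intervals, counting error only).

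MT-TC, for cysteine, was the exception. It had 1030 and 2054 CPM in the controls, then 1676 and 1397 CPM at 10 µM and then 65.4 and 69.5 CPM at 100 µM. The 10 µM libraries thus lay between the controls. Its neighbour MT-TY, for tyrosine, had 374 and 592 CPM in the controls, then 987 and 1499 CPM at 10 µM and then 34.1 and 38.9 CPM at 100 µM. Here the groups did not overlap.

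How 10 µM GenX compared with the control was asked first. All 9 genes passed the filter on low counts, and 8 of them had CPM values at 10 µM above both controls, and MT-TC did not. Among all 3180 genes tested, 10.3% lay above in this way. By edgeR's quasi-likelihood test with Benjamini-Hochberg adjustment over all genes, none of the 9 were called, where 0.220% of genes were called higher and 0.377% lower. At an unadjusted p under 0.05 there were 6 of the 9, beside 28.1% of all genes in either direction. DESeq2 called 8 higher, beside 5.28% of all genes. MT-ND6 had a log2 fold change of 3.05 ± 0.62 (SE, n = 2 per group; edgeR adjusted p = 0.0669). The 6 tRNA genes other than MT-TC and MT-TY had values from 2.60 for MT-TN to 3.98 for MT-TE. MT-TY had 1.15 (edgeR adjusted p = 0.468) and MT-TC -0.16 (0.934). The median over the 9 was 3.05, and that over all genes tested was -3.18.

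That count depended on the controls. Without control 1, 5 of the 9 passed as higher, beside 0.935% of all genes tested, and without control 2, 7 passed, beside 0.742%. With 1 control left, the spread comes from the other groups, and the lone control is assumed to vary like them. No member passed when any 10 µM or 100 µM library was left out. Few or none of all genes tested were called higher in those fits, so this is no result about the 9. For MT-ND6 the log2 value stayed between 2.45 and 3.81 under all 13 alternatives. Labels do not say whether replicates came from separate cultures, so the p-values cover the spread between the libraries alone, and that may be technical.

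At 100 µM against the control, all 9 genes had CPM values below both controls, beside 10.1% of all genes tested. By edgeR's quasi-likelihood test none were called, where 0% of genes were called in either direction, although all 9 had an unadjusted p under 0.05, beside 18.0% of all genes. DESeq2 called all 9 lower, beside 5.75% of all genes. MT-ND6 had a log2 fold change of -3.27 ± 0.62 (edgeR adjusted p = 0.166). The tRNA genes ranged from -4.28 for MT-TY to -6.34 for MT-TS1, with edgeR adjusted p-values between 0.166 and 0.204. The median over the 9 was -5.04, beside 0.35 for all genes tested. Without control 1, 8 of the 9 passed as lower, beside 2.67% of all genes tested, and without control 2 again 8, beside 2.52%, with the lone control assumed to vary like the other groups. Without any 1 of the exposed libraries neither the 9 nor any other gene tested passed, so this is no result about the 9. With any 1 library left out, the log2 value of MT-ND6 stayed between -3.186 and -2.295.

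The exposed groups were then compared with each other. All 9 genes had CPM values at 100 µM below both 10 µM libraries, beside 7.30% of all genes tested. At 100 µM against 10 µM, 8 of the 9 were lower in edgeR's quasi-likelihood test, beside 2.11% of all genes tested lower and 0.755% higher. MT-ND6 fell by 6.31 ± 0.72 on the log2 scale (edgeR adjusted p = 0.00224). MT-TS1 had the largest fall of the 9, by 9.94 ± 1.48 (edgeR adjusted p = 0.00739), and MT-TC the smallest, by 4.88 ± 1.12 (0.0427). MT-TY, at -5.42 ± 1.30, did not pass (0.0536). The median over the 9 was -8.01, and over all genes 3.52.

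MT-ND6 alone stayed past the threshold without any 1 of the 6 libraries, with edgeR adjusted p up to 0.0266. Without 100 µM replicate 1 or 2 it was the 1 gene of the 9 called lower, beside 0.267% and 0.266% of all genes tested. Without 10 µM replicate 1 or 2, 5 of the 9 passed, beside 0.332% and 2.62%. Without control 1 or 2 all 9 passed, beside 7.58% and 5.02%. With no filter on low counts none of the 9 passed, and MT-ND6 had an edgeR adjusted p of 0.132.

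The levels above depend in part on the share of each library that mtDNA took. It was 4.35% and 10.4% in the controls, then 43.7% and 61.1% at 10 µM and then 3.58% and 3.32% at 100 µM. Setting the minus-strand counts against the plus-strand mtDNA counts of the same library removes that share. There were 8.17 and 10.7 minus-strand counts per 100 plus-strand counts in the controls, then 9.73 and 9.35 at 10 µM and then 1.40 and 1.83 at 100 µM. The 100 µM libraries were lowest, and the 10 µM values lay between the controls.

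As a share of mtDNA counts, the 9 genes took 7.55% (95% exact binomial interval 7.05 to 8.08) and 9.63% (8.92 to 10.4) in the controls. They took 8.87% (8.47 to 9.28) and 8.55% (8.15 to 8.97) at 10 µM, and 1.38% (1.30 to 1.46) and 1.80% (1.67 to 1.92) at 100 µM. The control intervals did not meet each other, and the 10 µM shares lay between the control values.

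On the log2 scale the ratio of minus to plus counts at 100 µM differed from the control by -2.55 and from 10 µM by -2.58. A permutation test over libraries, exact and two-sided, returned p = 0.333 for each, and 2 libraries against 2 cannot give less. At 10 µM against control the difference was 0.032 (exact permutation p = 1), with overlapping groups and a sign that turned when control 1 was left out (-0.16). That difference was 0.56 without MT-TC and MT-TY, while at 100 µM it was -2.23 against control and -2.79 against 10 µM without them.

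**Figure D2:**
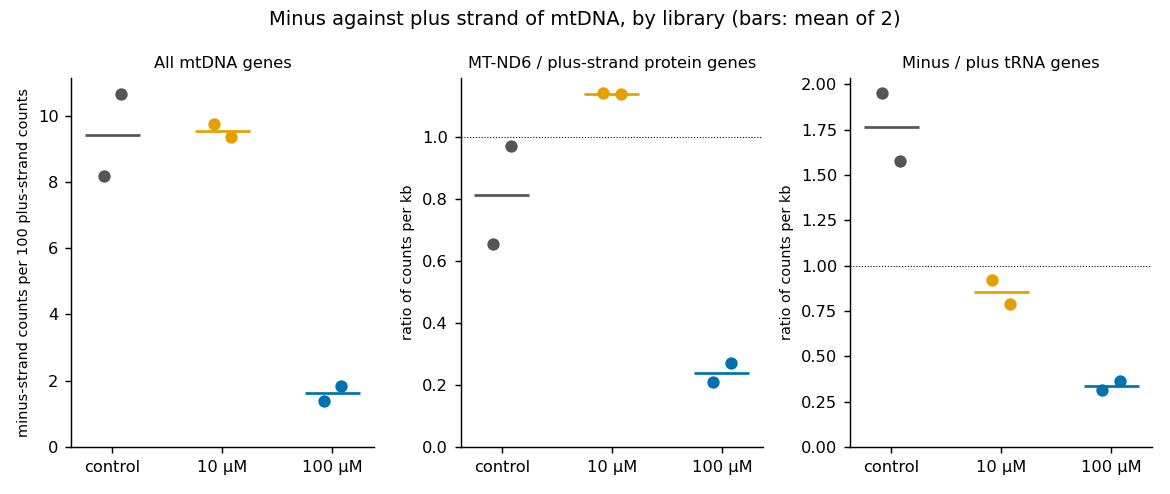
Minus-strand against plus-strand mtDNA in each library, with 1 point per library and a bar at the mean of 2, for all genes as counts per 100 plus-strand counts, for MT-ND6 against the 12 plus-strand protein genes, and for the 8 minus-strand against the 14 plus-strand tRNA genes, both per kilobase. The 100 µM libraries lie lowest in all 3 panels, and a dotted line marks equal levels per kilobase.

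The plus-strand total was also formed without 3 genes, chosen after their values were seen. MT-CO1 and MT-CO2, subunits of cytochrome c oxidase, had the most counts of the plus strand at 100 µM, and MT-TL1, a leucine tRNA gene, the most among its tRNA genes. The 3 together took 43.6% and 31.4% of plus-strand counts in the controls, then 20.2% and 19.7% at 10 µM and then 54.0% and 52.9% at 100 µM. Without these 3 genes there were 14.5 and 15.5 minus-strand counts per 100 plus-strand counts in the controls, then 12.2 and 11.7 at 10 µM and then 3.04 and 3.88 at 100 µM. The 100 µM libraries stayed lowest, and the 10 µM libraries now lay below both controls.

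Per kilobase of gene, MT-ND6 was set against the sum of the 12 plus-strand protein genes. It held 0.654 and 0.969 of their level in the controls, then 1.14 and 1.14 at 10 µM and then 0.208 and 0.270 at 100 µM. The minus-strand mRNA was therefore slightly above the plus-strand mRNAs at 10 µM and well below them at 100 µM. The log2 difference was -2.26 at 100 against 10 µM, -1.75 at 100 µM against control and 0.52 at 10 µM against control, each with exact permutation p = 0.333. Without MT-CO1 and MT-CO2 the ratios were 0.925 and 1.15 in the controls, then 1.15 and 1.14 at 10 µM and then 0.353 and 0.447 at 100 µM. The log2 differences were then -1.53 at 100 against 10 µM, -1.37 at 100 µM against control and 0.15 at 10 µM against control. The 10 µM ratios then lay at the level of control 2, and the 100 µM ratios were still lowest. By level per kilobase MT-ND6 ranked 8 and 5 among the 13 protein genes in the controls, then 2 and 3 at 10 µM and then 10 and 9 at 100 µM.

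Its neighbours gave a different picture at 100 µM. MT-ND5, the plus-strand gene that ends at the base before MT-ND6, had a lower level per kilobase in every library, by an uneven margin. The MT-ND6 to MT-ND5 ratios were 1.45 and 1.19 in the controls, then 1.08 and 1.14 at 10 µM and then 1.02 and 1.67 at 100 µM. MT-CYB, on the plus strand beyond MT-TE, gave ratios of 1.00 and 0.970 in the controls, then 1.02 and 0.974 at 10 µM and then 0.391 and 0.472 at 100 µM. At 100 µM MT-ND6 was thus below MT-CYB but not below MT-ND5. The counting's strand setting is not given in the sources used here, so reads from a gene and from its antisense precursor cannot be told apart.

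**Figure D3:**
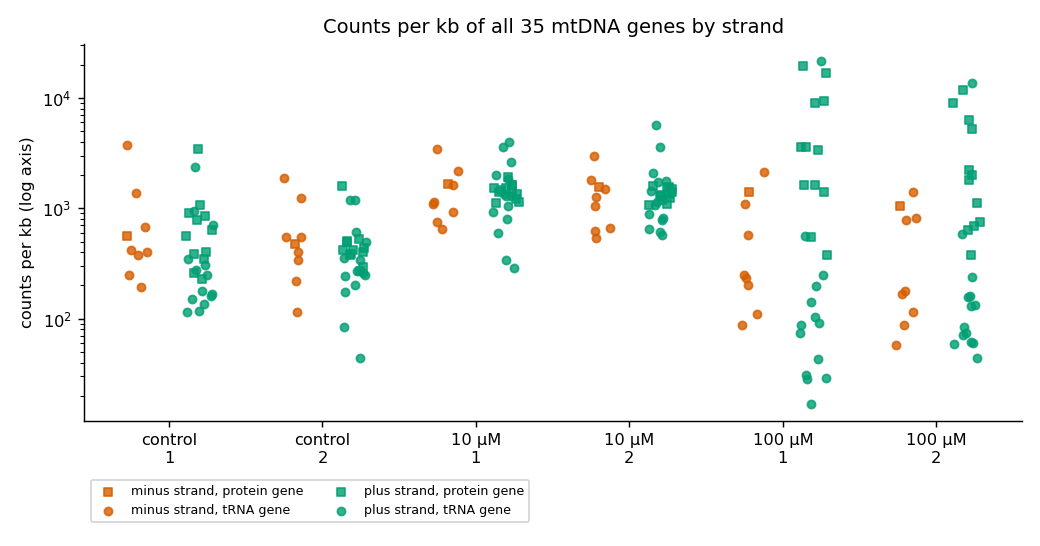
Counts per kilobase of all 35 mtDNA genes in each library on a log axis, minus strand left and plus strand right of each library's mark, with squares for protein genes and circles for tRNA genes. At 10 µM both strands cover like ranges, while at 100 µM plus-strand protein genes reach 19427 counts per kilobase and MT-ND6 1417.

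Gene by gene, MT-ND6 had 302 and 436 counts per 10000 plus-strand counts in the controls, then 502 and 496 at 10 µM and then 98.3 and 127 at 100 µM. MT-TC had 256 and 218 in the controls, then 42.0 and 25 at 10 µM and then 18.5 and 21.3 at 100 µM. On this scale MT-TC and MT-TY lay below both controls at 10 µM, beside 51.1% of all genes tested, while MT-TQ, MT-TA, MT-TS1, MT-ND6 and MT-TE lay above, beside 3.68%. At 100 µM all 9 lay below both controls, beside 6.45% of genes, and below both 10 µM libraries, beside 3.71%.

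With the plus-strand mtDNA counts as the library size, edgeR's quasi-likelihood test asked whether each gene moved apart from the plus-strand total. At 100 against 10 µM, 7 of the 9 were lower, beside 1.86% of all genes tested lower and 75.2% higher. MT-TS1 fell by 5.79 ± 1.65 on the log2 scale (edgeR adjusted p = 0.0118) and MT-TQ fell by 5.46 ± 1.69 (0.0152). MT-ND6 fell by 2.15 ± 0.85 (0.0382), the smallest fall among the 7. MT-TY, at -1.26 ± 1.39 (edgeR adjusted p = 0.408), and MT-TC, at -0.75 ± 1.18 (0.556), did not pass. Most plus-strand tRNA genes fell too, though MT-TL1 rose. Over the 14, the median went from 1298 and 1106 counts per kilobase at 10 µM to 89.6 and 108 at 100 µM. For the 8 minus-strand tRNA genes it went from 1125.5 and 1167 to 239 and 172. The plus-strand total rose from 17361 and 16409 to 75697 and 43638 counts. A fall against that total was thus not particular to the minus strand. The median log2 value over the 9 was -3.84 and that over all genes 7.43.

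These calls rest on all 4 exposed libraries, since 0 of the 9 passed when any 1 of them was left out, and 7 passed without control 1 or 2, beside 1.11% and 0.611% of all genes. Leaving MT-CO1, MT-CO2 and MT-TL1 out of the library size left 4 of the 9 past the threshold, beside 1.35% of all genes, and with no filter on low counts 0 passed.

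On the same scale 0 of the 9 passed at 100 µM against control, beside 0% of all genes called lower, with 7 of 9 at an unadjusted p under 0.05, beside 25.3% of all genes, and 7 called lower by DESeq2, beside 0.975%. Values ran from -1.71 for MT-ND6 to -4.89 for MT-TS1, with a median of -3.44 beside 1.72 for all genes. Without control 1, 8 passed as lower, beside 4.33% of all genes, and without control 2, 6, beside 3.30%. Without any 1 of the exposed libraries none of the 9 passed, and whether that was particular to the 9 was not tested. With any 1 library left out, the log2 value of MT-ND6 stayed between -1.952 and -1.421. At 10 µM against control 0 passed in edgeR, beside 40.0% of all genes called lower, and 1 in DESeq2, beside 49.4%. At an unadjusted p under 0.05 there was 1, beside 53.2% of all genes. MT-TC had a value of -2.82 ± 1.25 (edgeR adjusted p = 0.0863) and MT-TY -1.59 ± 1.40 (0.361). The other 7 lay between 0.11 for MT-TN and 1.23 for MT-TE, and the median of the 9 was 0.44 beside -5.28 for all genes. Without control 1 or without control 2, 1 of the 9 passed as lower, beside 28.7% and 32.3% of all genes, and it was MT-TC in both.

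**Figure D4:**
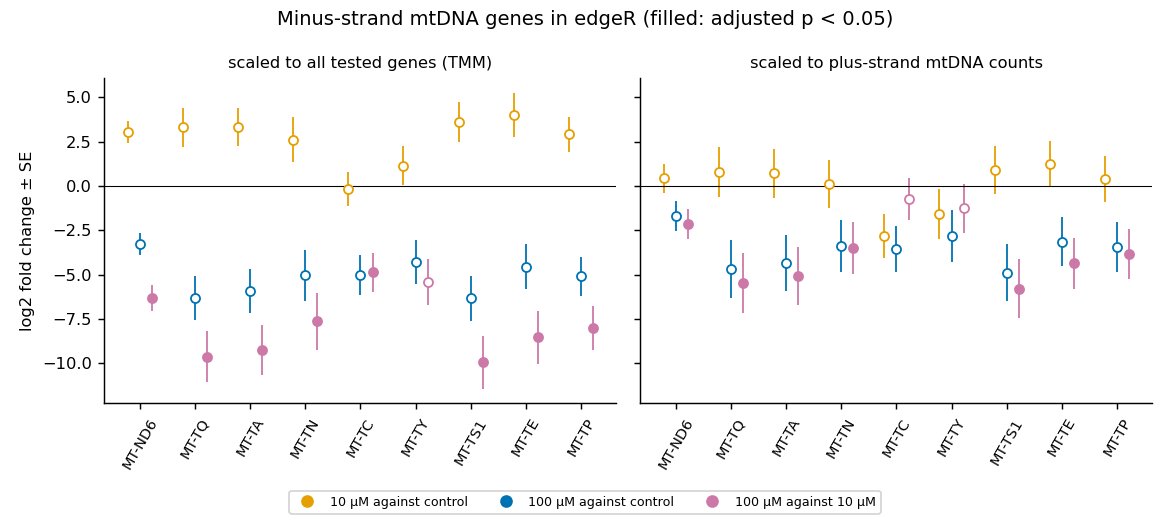
Log2 fold change ± SE of each minus-strand gene in edgeR for 3 comparisons, scaled to all tested genes on the left and to plus-strand mtDNA counts on the right, with filled points for adjusted p under 0.05. On the right the values at 10 µM against control lie between 0.11 and 1.23 except those of MT-TC and MT-TY, which are negative, and 7 of the values at 100 against 10 µM are filled.

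MT-TC and MT-TY were then described beside the other 6 minus-strand tRNA genes, a split made after their values were seen and therefore not tested. Per kilobase, MT-TC held 9.80 and 3.96 times the level of the other 6 combined in the controls, then 0.662 and 0.410 at 10 µM and then 8.82 and 5.98 at 100 µM. MT-TY held 3.56 and 1.14 times their level in the controls, then 0.390 and 0.440 at 10 µM and then 4.60 and 3.34 at 100 µM. At 10 µM both lay below the combined level of the other 6, and in the other groups above it. Single genes differed from this, since MT-TC was above MT-TN in both 10 µM libraries and MT-TY was below MT-TP in control 2.

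MT-TC had the highest level per kilobase of all 35 mtDNA genes in both controls, with 3758 and 1894 counts per kilobase. At 10 µM it ranked 26 and 32 of 35, with 1106 and 621 counts per kilobase, and at 100 µM 9 and 9, with 2121 and 1409. The adjoining MT-TN, across the light-strand origin, was far lower in most libraries. The MT-TC to MT-TN ratio per kilobase was 19.6 and 5.53 in the controls, then 1.21 and 1.16 at 10 µM and then 8.60 and 7.91 at 100 µM. At 10 µM the levels on the 2 sides of the origin were thus close. MT-TC and MT-TY themselves differed by 2.76 and 3.47 times, 1.70 and 0.932 times, and 1.92 and 1.79 times at the same doses.

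Within the strand, MT-ND6 made up 36.9% and 40.8% of minus-strand counts in the controls, then 51.6% and 53.0% at 10 µM and then 70.3% and 69.4% at 100 µM. MT-TC made up 31.4% and 20.4%, 4.32% and 2.67%, and 13.2% and 11.7%. The tRNA share as a whole was highest in the controls and lowest at 100 µM, and the groups did not overlap.

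Over the 9 genes, log2 counts per kilobase had an SD of 1.31 and 1.21 in the controls, then 0.769 and 0.814 at 10 µM and then 1.65 and 1.74 at 100 µM. Levels were thus most even at 10 µM. The highest of the 8 tRNA genes exceeded the lowest 19.6 and 16.3 times, 5.33 and 5.53 times, and 24.4 and 24.3 times at these doses.

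**Figure D5:**
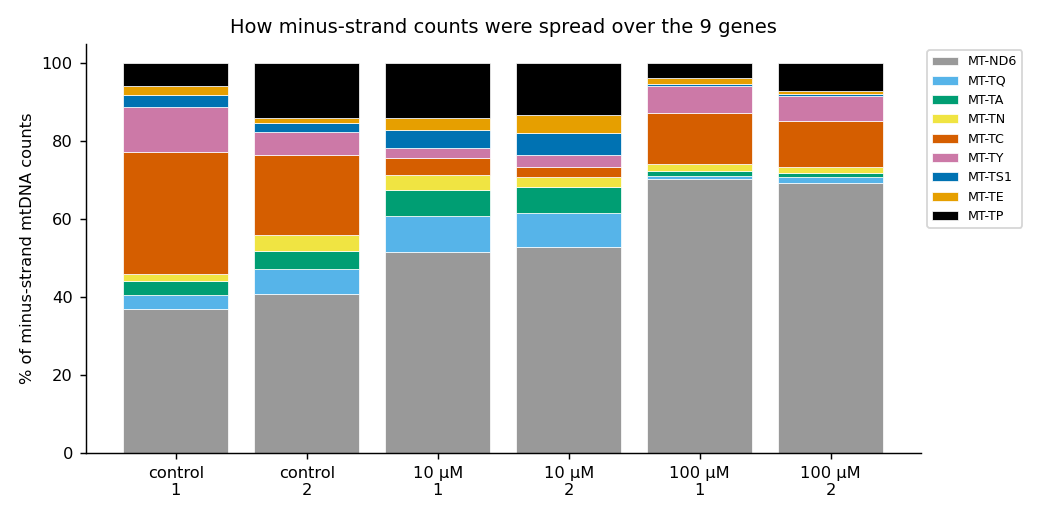
Share of the minus-strand mtDNA counts, in percent, taken by each of the 9 genes in each library. MT-ND6 takes 36.9% to 40.8% in the controls, 51.6% to 53.0% at 10 µM and 69.4% to 70.3% at 100 µM, while MT-TC takes its largest share in the controls.

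Against the tRNA genes of the plus strand the result turned on few genes, MT-TL1 at 100 µM and MT-TC with MT-TY at 10 µM. Per kilobase, the 8 minus-strand tRNA genes held 1.95 and 1.58 times the level of the 14 plus-strand ones in the controls, then 0.922 and 0.788 times at 10 µM and then 0.314 and 0.363 times at 100 µM. At 10 µM against control the log2 difference was -1.04, and at 100 µM it was -2.38 against control and -1.34 against 10 µM (exact permutation p = 0.333 for each). MT-TL1 alone, however, took 40.4% and 11.6% of plus-strand tRNA counts in the controls, then 12.96% and 9.97% at 10 µM and then 93.4% and 89.1% at 100 µM. Without MT-TL1 the ratio was 3.02 and 1.65 in the controls, then 0.977 and 0.806 at 10 µM and then 4.40 and 3.07 at 100 µM. The direction at 100 µM thus reversed against both other groups. Without MT-TC and MT-TY alone it was 0.827 and 1.15 in the controls, then 1.04 and 0.913 at 10 µM and then 0.133 and 0.194 at 100 µM. The controls and the 10 µM libraries then overlapped, with a log2 difference of -0.0024. Without MT-TL1, MT-TC and MT-TY it was 1.28 and 1.20 in the controls, then 1.10 and 0.935 at 10 µM and then 1.86 and 1.63 at 100 µM.

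Neighbouring genes on opposite strands were also set side by side. MT-TP exceeded MT-TT, the threonine tRNA gene beside it on the plus strand, by 4.46 and 4.58 times per kilobase in the controls, then 3.76 and 4.88 times at 10 µM and then 6.31 and 13.6 times at 100 µM, where MT-TT had 6 and 4 counts. MT-TS1, which begins at the base after MT-CO1, held 0.348 and 0.50 of the level of MT-CO1 in the controls, then 0.779 and 0.958 at 10 µM and then 0.00516 and 0.00638 at 100 µM. MT-TQ shares 3 bases with MT-TI, the isoleucine tRNA gene, and exceeded it 2.61 and 3.19 times, 1.66 and 2.32 times, and 3.83 and 1.05 times at these doses.

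Among the 26 other mtDNA genes, those whose CPM followed the summed minus-strand CPM most closely over the 6 libraries were the tRNA genes MT-TV (Pearson r = 0.999), MT-TT (0.996) and MT-TF (0.996). Of 421 nuclear genes with a count in every library, the closest were MTND2P28 (r = 0.994), UBBP1 (0.991), PPP2R3B (0.985), ANKRD13D (0.985) and PLXNA1 (0.979). The values were compared as log2(CPM + 1) and are descriptive, since all genes share the library totals. UBBP1 had 2 and 2 counts in the controls, then 3 and 4 at 10 µM and then 4 and 4 at 100 µM. With counts so even, its CPM mostly mirrors depth, and its r is no measure of shared expression. PPP2R3B, ANKRD13D and PLXNA1 had at most 21 counts in any library. MTND2P28, a nuclear copy of MT-ND2, had 8 and 6 counts in the controls, then 23 and 12 at 10 µM and then 13 and 6 at 100 µM. Nuclear copies of MT-ND6 itself, 27 in all, held at most 1 count in any library.

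Nuclear genes that make, cut, degrade or charge mitochondrial RNAs had few counts in most libraries. Of 32 listed, 9 were tested, and 0 passed in edgeR in any of the 3 comparisons. At an unadjusted p under 0.05 there were 1 at 10 µM against control, 3 at 100 µM against control and 2 at 100 against 10 µM, and DESeq2 called 1, 0 and 0. Their median log2 fold changes were -0.90, 1.88 and 3.31, beside -3.18, 0.35 and 3.52 for all genes. The smallest edgeR adjusted p was 0.152 at 10 µM against control, 0.204 at 100 µM against control and 0.130 at 100 against 10 µM. Some of the 9 passed the filter through the 100 µM libraries alone, such as FASTKD5, with 167 and 127 counts there and 0 in every other library. Such genes can only be higher at 100 µM, so the medians for that dose carry this selection and are no result about the list. LRPPRC had 3 and 0 counts in the controls, then 11 and 0 at 10 µM and then 557 and 375 at 100 µM. POLRMT, the mitochondrial RNA polymerase, had 9 and 1, 17 and 0, and 279 and 248. TBRG4, also listed, had 42 and 4, 10 and 0, and 185 and 164. These counts are not scaled to library depth, so they give no direction between doses. ELAC2 had 1 and 2, 0 and 2, and 94 and 10, and was not tested.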

How the data were processed

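RNA was measured in 6 libraries of HepG2 mitochondria, 2 per dose. The deposited values are unnormalised read counts for each gene, with the featureCounts layout per the file headers. Per the submitters' processing notes the tools were FastQC, STAR, featureCounts and DESeq2 with GRCh38. Versions, the strand setting and the handling of overlapping or multiply mapped reads are not given in the sources used here, and each can change the counts of short mtDNA genes. The ribosomal genes of mtDNA were not analysed here.

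Groups came from sample titles. Symbols were matched by identifier for 56410 of 57500 genes, and 0 lines named no gene. Depth ran from 29350 to 2141282 counts, and intervals cover counting error only. Replicates differed beyond sampling noise, with chi-square per degree of freedom of 39.4 for the controls, 12.9 for 10 µM and 35.2 for 100 µM.

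Genes were tested with edgeR 4.0.16 (R 4.3.3), using filterByExpr (3180 genes kept, all 9 members among them), TMM scaling, robust quasi-likelihood fits of all 6 libraries, two-sided tests and Benjamini-Hochberg adjustment over all genes at 0.05. A second fit on the same genes used plus-strand mtDNA counts as library size. SEs are the log2 fold change divided by the root of the F statistic. Ratios per library were compared by exact permutation in scipy 1.17.1. Alternatives included DESeq2 1.42.0, other scalings, no filter, a replicate block and leaving out libraries. Ratios under an alternative were judged by the pooled SD between replicates. The gene fits were run on simulated counts with a spread set in advance and no changes placed in mtDNA genes. This checks the code and not the results given here.

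All members and their mtDNA neighbours were named, and other genes by the closeness of their pattern or from a list of nuclear genes of mitochondrial RNA metabolism. Members and lists were chosen with earlier results of these data known.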

Additional observations from a re-analysis of the deposited data

Results flagged for a closer look

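In 3 quantities, every library of 1 dose lay on 1 side of equal levels and every library of another dose on the opposite side. In an exact permutation test 2 libraries against 2 cannot give p below 0.333, and the differences were not tested in any other way. MT-ND6 per kilobase lay above the sum of the plus-strand protein genes in both 10 µM libraries and below it in both controls (log2 difference 0.52) and in both 100 µM libraries (100 against 10 µM, -2.26). Without MT-CO1 and MT-CO2, control 2 was also above equal (1.15, against 1.15 and 1.14 at 10 µM), so the contrast with the controls did not hold.

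Minus-strand tRNA genes per kilobase lay below plus-strand tRNA genes at 10 µM and above them in the controls (-1.04). Without MT-TC and MT-TY the ratios were 1.04 and 0.913 at 10 µM, against 0.827 and 1.15 in the controls, and the contrast was gone. With medians over genes, 10 µM replicate 2 was above equal, at 1.055. They also lay below at 100 µM (-2.38 against control), where the direction turned without MT-TL1.

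Minus-strand tRNA genes per kilobase lay below MT-ND6 at 10 µM (0.892 and 0.842, against 1.63 and 1.38 in the controls, log2 difference -0.79). At 100 µM the ratios were 0.401 and 0.419 (-1.87 against control). Without MT-TC and MT-TY, the other 6 held 1.01 and 0.977 of the MT-ND6 level at 10 µM and 0.17 and 0.223 at 100 µM, against 0.689 and 1.00 in the controls. The contrast at 10 µM then did not hold, while at 100 µM both libraries stayed below both controls.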

How the results depend on the processing

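Same-numbered replicates did not deviate together (correlations 0.000332, 0.00315 and -0.0222 over 3180 genes), so the replicate block pairs samples by number only. With it 75 of 3180 genes were called at 10 µM against control and 22 at 100 µM against control. Of the 9 members 1 was called higher at 10 µM against control, beside 14 of all genes. At 100 µM 5 were called lower against control, beside 22 genes, and 8 against 10 µM, beside 82. Relative to plus-strand counts 2 members passed at 100 against 10 µM, a number not set beside a count over all genes here. Genes called at 10 µM against control numbered 19 of 3180 tested, 7 with library sizes alone, 7 of 19632 without a filter and 554 in DESeq2. With only the 4 libraries compared they numbered 206, of 458 tested. At 100 µM against control they numbered 0, then 4 with DESeq2 size factors and 244 in DESeq2. At 100 against 10 µM they numbered 91, then 383 in DESeq2, 3 of 19632 without a filter and 258 of 5808 with only the 4 libraries. Leaving out 1 library gave 4 to 861, 0 to 204 and 16 to 1272. Members called higher at 10 µM against control numbered 1 with DESeq2 size factors or TMM without mtDNA genes, beside 8 of 3180 genes in each. They numbered 8 in DESeq2, beside 168 of 3180, and 6 with the 4 libraries, beside 72 of 458. Members called lower at 100 µM against control numbered 9 in DESeq2, beside 183 of 3180 genes. At 100 against 10 µM they numbered 0 without a filter, beside 0 of 19632 genes. Relative to plus-strand counts, DESeq2 called 1 at 10 µM and 7 at 100 µM against control, and leaving out 1 library gave 0 to 1, 0 to 8 and 0 to 7. At 100 against 10 µM, 0 passed without a filter and 4 without MT-CO1, MT-CO2 and MT-TL1 in the library size, an alternative chosen after seeing the data, as were the ratios of medians and those without named genes.

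Signs turned for small values. MT-TC at 10 µM against control had 0.22 with library sizes alone, 0.38 with DESeq2 size factors, 0.39 in DESeq2 and 0.56 with the 4 libraries. Relative to plus-strand counts MT-TN had -0.19 without the 3 named genes, -0.48 without control 1 and -0.28 without 10 µM replicate 1, MT-TP -0.20 without control 1 (to 1.44 without control 2), and MT-TC 0.028 at 100 against 10 µM without the 3 genes. The strand ratio at 10 µM against control was -0.44 with medians per kilobase, -0.33 without the 3 genes and -0.16 to 0.22 without a library. The tRNA ratio at 100 µM became 0.72 against control and 2.05 against 10 µM without MT-TL1, and 0.16 and 1.11 with medians. Other ratios moved by more than the spread between replicates and kept their sign. The strand ratio at 10 µM against control was 0.60 without overlapping genes and 0.56 without MT-TC and MT-TY. At 100 µM against control it was -2.10 and -2.23 in the same way, -1.47 with medians and -2.13 without the 3 genes, and against 10 µM -2.79 without MT-TC and MT-TY, -1.03 with medians and -1.79 without the 3 genes. MT-ND6 against the plus-strand protein genes had 0.16, -1.11 and -1.28 with their median and 0.15, -1.37 and -1.53 without MT-CO1 and MT-CO2 at 10 µM against control, 100 µM against control and 100 against 10 µM. The tRNA ratio at 10 µM against control was -0.013 without overlapping genes, -0.0024 without MT-TC and MT-TY and -1.33 without MT-TL1. At 100 µM it was -2.61 against control and -2.60 against 10 µM without MT-TC and MT-TY, and against 10 µM -2.47 without overlapping genes and -1.51 when libraries were thinned to the shallowest. For the reversals the cause was not tested, other than the weight of MT-TL1. The ratios at 100 µM for all genes and for MT-ND6 kept their direction under every alternative run. Low depth at 10 µM and few reads per tRNA gene at 100 µM limit precision.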
